A study of Mus musculus with 8 samples.

Results

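Sbp, Spink1 and Sbpl are the 3 genes with the highest mean TPM (transcripts per length, scaled to a total of 1000000) in the mouse ventral prostate libraries examined here. Together they held between a low of 32.1% and a high of 45.8% of the TPM listed for a library. They were picked by name from the 36333 genes listed, because earlier results of the same libraries had shown their high TPM and its difference between genotypes. Their levels and the genotype differences in them are therefore given below as a description, without a test. All 3 genes passed the filter on low values used for the gene-wide fit.

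Each of the 8 libraries came from the ventral lobes of a single male mouse of the FVB/N strain at 12 months of age, 4 of them hSKP2-KI and 4 WT. The hSKP2-KI mice carry the coding sequence of human SKP2, a substrate receptor of a ubiquitin ligase, joined through a P2A peptide to exon 1 of the endogenous probasin gene (Pbsn), so that the insert is driven by the probasin promoter, which is active in prostate epithelium and depends on androgen. Pbsn is X-linked, and the knock-in males were offspring of heterozygous females and WT males. The founder line of the sequenced mice is not given in the sources used here. TPM is a level per transcript length on a fixed total, so the levels of different genes can be set side by side, but the number of reads behind a value is unknown and a TPM is always relative to all other RNA of the lobe.

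Sbp encodes spermine-binding protein, a secreted glycoprotein of the ventral prostate that binds the polyamine spermine and whose synthesis depends on androgen. Sbpl is the Sbp-like gene beside it. Spink1, called Spink3 or p12 in older mouse work, encodes a small Kazal-type inhibitor of trypsin that is secreted by the pancreas, the seminal vesicle and the prostate. The luminal cells of the ventral lobe are secretory cells that pass such proteins through the endoplasmic reticulum into the prostatic fluid, and a few gene products make up much of their output.

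Sbp (Entrez 20234) and Sbpl (Entrez 638345) lie near each other on chromosome 17 on opposite strands. In the GRCm38 annotation of RefSeq, Sbp spans chr17:23922551-23945603 on the plus strand and Sbpl spans chr17:23953085-23955273 on the minus strand. Spink1 (Entrez 20730) lies on another chromosome. In GENCODE M21 the Sbp and Sbpl transcripts that correspond to the RefSeq messengers have 4 exons each and are 1002 and 878 bases long, and the Spink1 transcript has 4 exons and 729 bases. The coding sequences of Sbp and Sbpl were aligned over 597 bases, of which 557 were identical (93.3%). Their conceptual translations, of 199 and 232 residues, were identical at 171 of 197 aligned residues (86.8%), while the Spink1 translation has only 80 residues, 6 of them cysteines. The first 90 aligned coding bases without a gap are shown. They are the start of the Sbp coding sequence, on exons from chr17:23942446 to 23942646, and coding bases 46 to 135 of Sbpl, from chr17:23954662 to 23954863. This stretch is more alike than the aligned coding sequences as a whole. The 2 bases of the 90 that differ are in capitals.
Sbp: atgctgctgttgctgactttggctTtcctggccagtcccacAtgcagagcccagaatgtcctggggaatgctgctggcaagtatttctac
Sbpl: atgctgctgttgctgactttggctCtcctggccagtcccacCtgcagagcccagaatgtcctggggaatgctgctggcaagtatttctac
The longest stretch shared without a mismatch by any annotated Sbp and Sbpl transcript was 159 bases. Of the 831 distinct words of 50 bases in the Sbpl transcripts, 323 also occurred in an Sbp transcript, and of the 731 distinct words of 150 bases, 10 did. How reads that match both genes were assigned is not given in the sources used here, so the split between Sbp and Sbpl is uncertain and their sum is given as well.

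The sequences upstream of Sbp and Sbpl are shown because both genes were lower in hSKP2-KI mice. Their transcripts also start in sequence that can be searched for the letters of known motifs. Spink1 was lower as well, but no upstream sequence of it was among those searched. TATAAA, the usual TATA box hexamer, and AGAACA, the hexamer that is repeated in the classical androgen response element, were searched on both strands in the 250 bases before each RefSeq start site. Only bases outside the annotated exons of the gene are printed, and a match is in capitals. For Sbp this is chr17:23941428-23941671 (plus strand), before the start at 23941678, and for Sbpl chr17:23955275-23955523 (minus strand), before the start at 23955273.
Sbp: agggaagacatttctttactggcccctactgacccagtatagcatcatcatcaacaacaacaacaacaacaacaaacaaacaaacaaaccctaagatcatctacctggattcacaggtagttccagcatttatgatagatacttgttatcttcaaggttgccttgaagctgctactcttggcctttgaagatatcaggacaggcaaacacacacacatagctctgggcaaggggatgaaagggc
Sbpl: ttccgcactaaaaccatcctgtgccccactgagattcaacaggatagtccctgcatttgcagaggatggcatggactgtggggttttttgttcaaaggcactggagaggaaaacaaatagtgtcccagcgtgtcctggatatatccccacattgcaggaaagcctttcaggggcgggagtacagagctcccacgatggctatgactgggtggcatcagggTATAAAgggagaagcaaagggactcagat
The Sbpl sequence holds 1 TATAAA, which begins 30 bases before the start site, and no AGAACA. The Sbp sequence shown holds neither. Sbp has further RefSeq start sites at 23922551 and 23941918, and in their windows the single match was an AGAACA on the opposite strand, 64 bases before the start at 23941918 and within annotated exon sequence. Among the 32851 upstream windows of the same length in the RefSeq table, 12.4% hold TATAAA and 16.1% hold AGAACA on either strand. A match describes the letters only.

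The knock-in was visible in the libraries. Mouse Skp2, to which reads of the human insert may have been assigned, was at 1.05 to 2.27 TPM in WT and at 37.3 to 60.6 TPM in hSKP2-KI mice. Pbsn, the gene that received the insert, was at 93.0 to 174 TPM in hSKP2-KI and at 3980 to 9232 TPM in WT mice.

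Sbp was the gene with the highest TPM in all 8 libraries. The WT mice had 250096, 234630, 256865 and 232706 TPM of Sbp (replicates 1 to 4), and the hSKP2-KI mice had 199293, 200832, 218476 and 198342. Every hSKP2-KI value lay below every WT value, and 3 of the 4 hSKP2-KI mice lay close together. The mean level was 243574 ± 11794 (SD, n = 4) in WT and 204236 ± 9549 (SD, n = 4) in hSKP2-KI mice, which is 16.1% lower by the means of log2(TPM + 1). In share of TPM, Sbp went from 24.4% ± 1.18 (SD, n = 4) to 20.4% ± 0.955 (SD, n = 4). The spread between mice was small, with a coefficient of variation of 4.84% in WT and 4.68% in hSKP2-KI mice.

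Spink1 was the member with the widest distance between the genotypes. Its TPM was 114573, 89902.5, 119903 and 110171 in the WT mice and 61488, 50787.5, 69910 and 75952 in the hSKP2-KI mice. The genotypes did not overlap, and replicate 2 was the lowest mouse of each. The gene is annotated on chromosome 18 of GRCm38, from 43728069 to 43737237 (minus strand). The mean was 108637 ± 13108 (SD, n = 4) in WT and 64534 ± 10917 (SD, n = 4) in hSKP2-KI mice, a ratio of 0.594. Spink1 thus made up 10.9% ± 1.31 (SD, n = 4) of the TPM in WT and 6.45% ± 1.09 (SD, n = 4) in hSKP2-KI mice.

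Sbpl lay between the other two in the size of its difference. The WT mice had 79077, 79624, 81701 and 73560 TPM of Sbpl, and the hSKP2-KI mice had 64504, 69576, 55052 and 50132. The WT mice were close together, with a coefficient of variation of 4.43%, and the hSKP2-KI mice were spread more widely below them, with 14.8%. The mean was 78490 ± 3476 (SD, n = 4) in WT and 59816 ± 8826 (SD, n = 4) in hSKP2-KI mice, a ratio of 0.762. The sum of Sbp and Sbpl ranged from 306266 to 338566 TPM in WT and from 248475 to 273528 TPM in hSKP2-KI mice, again without overlap.

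**Figure D1:**
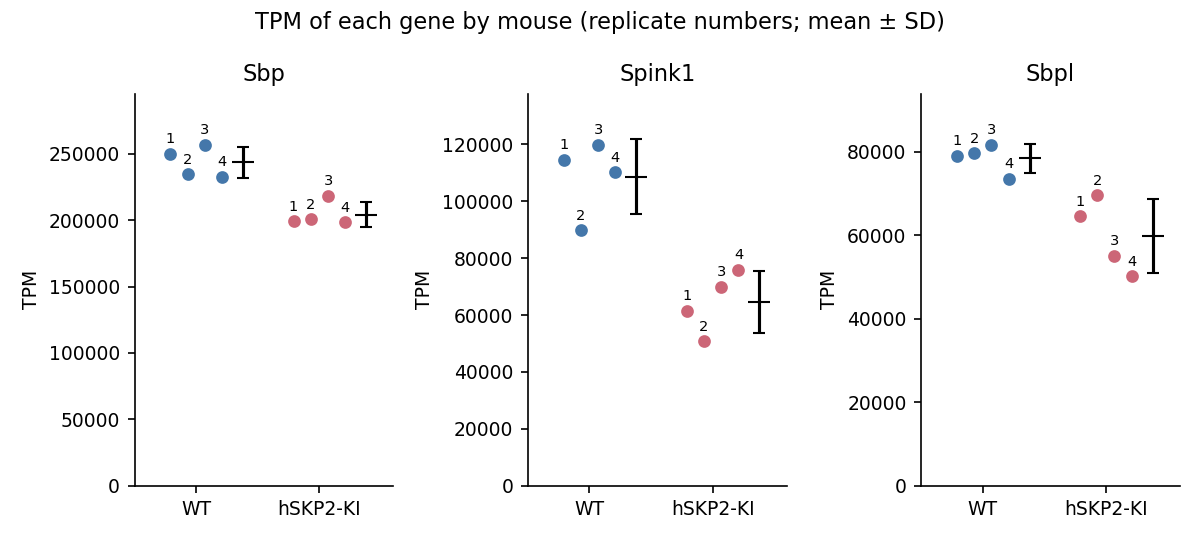
TPM (linear axes from 0) of Sbp, Spink1 and Sbpl in each of the 4 WT and 4 hSKP2-KI mice; numbers are replicate numbers and the black bars are the mean ± SD. In each panel all hSKP2-KI mice lie below all WT mice, and the ratio of the means is 0.838 for Sbp, 0.594 for Spink1 and 0.762 for Sbpl.

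On the log2(TPM + 1) scale, the difference between hSKP2-KI and WT means was -0.25 for Sbp, -0.76 for Spink1 and -0.40 for Sbpl, beside a standard deviation between mice of the same genotype of 0.068, 0.22 and 0.16. Of the 13080 genes tested, which reached 1 TPM in 4 or more mice, 135 (1.03%) were lower in every hSKP2-KI mouse than in every WT mouse, as these 3 genes were. Since the members were picked with these values in view, nothing is read from that share. With any single mouse left out, the difference stayed between -0.29 and -0.23 for Sbp, between -0.85 and -0.65 for Spink1 and between -0.48 and -0.32 for Sbpl. In whole lobes, fewer luminal cells and less RNA of these genes per cell cannot be told apart.

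Together the 3 genes held 44.4%, 40.4%, 45.8% and 41.6% of the TPM in the WT mice and 32.5%, 32.1%, 34.3% and 32.4% in the hSKP2-KI mice. The WT mean of 43.1% ± 2.48 (SD, n = 4) and the hSKP2-KI mean of 32.9% ± 1.01 (SD, n = 4) differed by 10.2 percentage points. The difference in share, hSKP2-KI minus WT, was -4.41 points for Spink1, -3.93 points for Sbp and -1.87 points for Sbpl, so that Spink1 gave more of the total difference than the more abundant Sbp. Counted from the top, 6 to 20 genes were enough to reach 50% of the TPM in a WT mouse, whereas 51 to 75 genes were needed in a hSKP2-KI mouse. The level of Sbp was 11.8 to 13.8 times that of the most abundant gene outside the members in WT mice, and 6.79 to 9.76 times in hSKP2-KI mice.

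**Figure D2:**
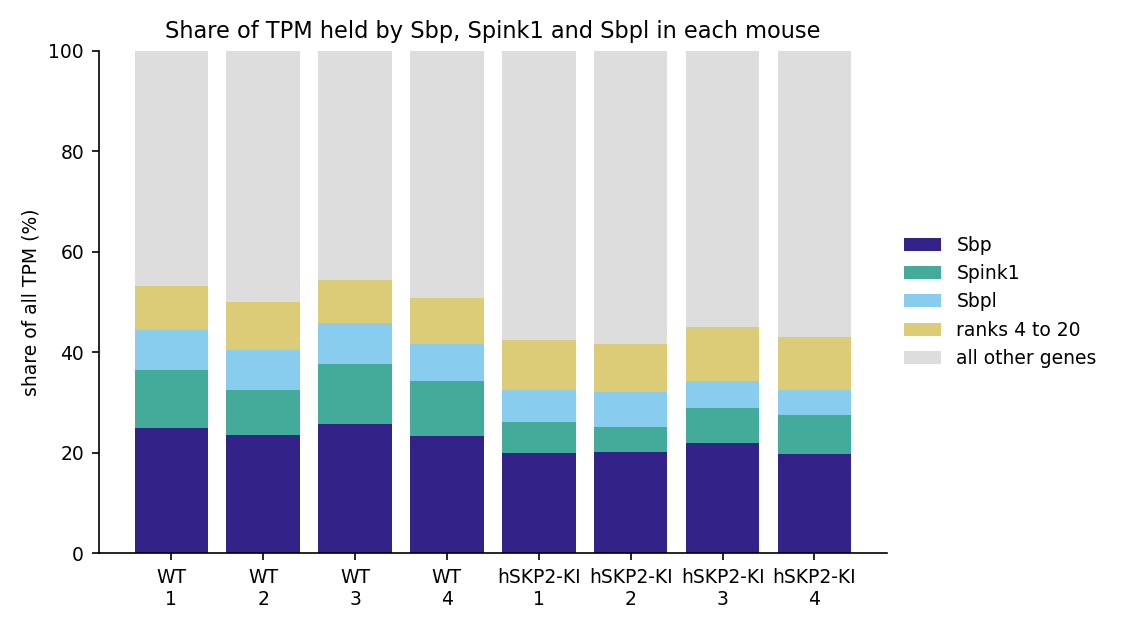
Share of all TPM (%) in each mouse, stacked for Sbp, Spink1, Sbpl, the 17 genes ranked 4 to 20 by mean TPM over the 8 mice, and all other genes. The 3 lower segments reach 40.4% to 45.8% in WT and 32.1% to 34.3% in hSKP2-KI mice.

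The order of Spink1 and Sbpl was not the same in every mouse. Spink1 was above Sbpl in all 4 WT mice, at 1.13 to 1.498 times its TPM. In the hSKP2-KI mice, Sbpl was above Spink1 in replicates 1 and 2 (Spink1 to Sbpl ratio 0.953 and 0.730), and Spink1 was above Sbpl in replicates 3 and 4 (1.27 and 1.52). The mean ratio of 1.39 ± 0.172 (SD, n = 4) in WT and of 1.12 ± 0.346 (SD, n = 4) in hSKP2-KI mice overlapped, so the levels of the genes ranked 2 and 3 did not keep an order beyond the spread between mice in the hSKP2-KI group. Among the hSKP2-KI mice the genes ran opposite ways, with high Sbpl and low Spink1 in replicates 1 and 2 and the reverse in replicates 3 and 4.

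Relative to Sbp, Spink1 was lower in hSKP2-KI mice. The Sbp to Spink1 ratio was 2.11 to 2.61 in WT and 2.61 to 3.95 in hSKP2-KI mice, and the lowest hSKP2-KI ratio (2.611) was just above the highest WT ratio (2.610). The Sbp to Sbpl ratio was 3.10 ± 0.105 (SD, n = 4) in WT mice and 3.48 ± 0.569 (SD, n = 4) in hSKP2-KI mice, and the genotypes overlapped. Within the total of the 3 genes, Sbp made up 56.6% ± 1.00 (SD, n = 4) in WT and 62.1% ± 1.17 (SD, n = 4) in hSKP2-KI mice without overlap, and Sbpl made up 18.3% ± 0.969 (SD, n = 4) and 18.2% ± 2.99 (SD, n = 4). These ratios are free of the fixed total of TPM, because both genes come from the same library.

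**Figure D3:**
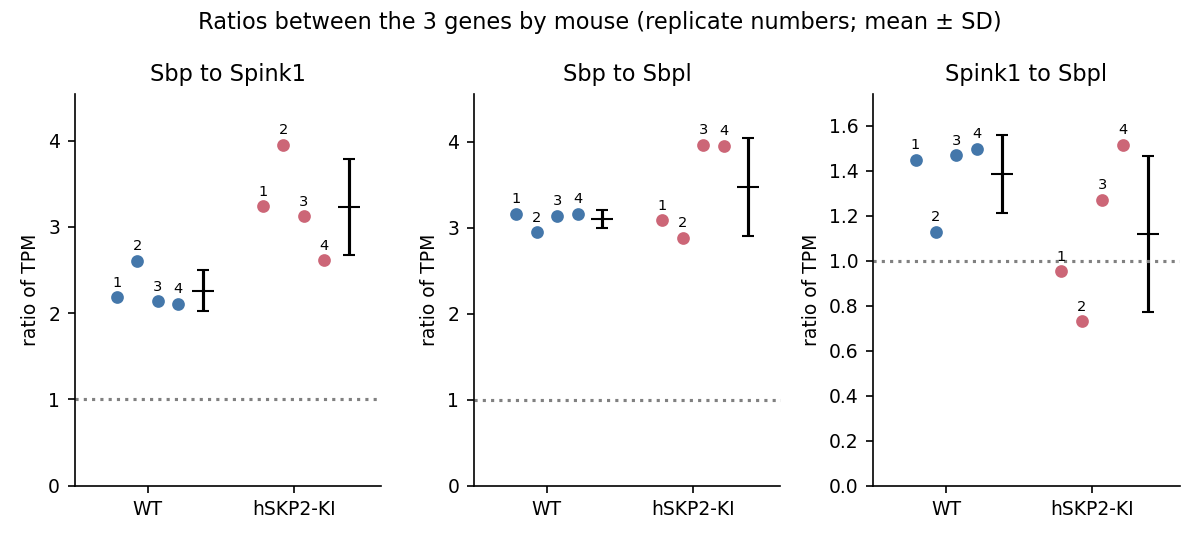
Ratios of TPM between the 3 genes in each mouse (linear axes from 0, replicate numbers beside the points, black bars mean ± SD, dotted line at equal levels). The Spink1 to Sbpl ratio lies above 1 in the 4 WT mice and on both sides of 1 in the hSKP2-KI mice.

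A fixed total of TPM means that a lower share of the 3 genes comes with a higher share of all others. The TPM outside the 3 genes was 56.9% ± 2.48 (SD, n = 4) of the total in WT and 67.1% ± 1.01 (SD, n = 4) in hSKP2-KI mice, a log2 ratio of the means of 0.24. The median log2 difference over the 13080 tested genes was 0.23. With limma on log2(TPM + 1) and Benjamini-Hochberg adjustment, 4433 genes (33.9%) passed a threshold of 0.05, 4272 (32.7%) with a higher and 161 (1.23%) with a lower level in hSKP2-KI mice. When every library was rescaled to its total outside Sbp, Spink1 and Sbpl, the median moved to 0.02 and the share of genes above 0 went from 89.1% to 54.5%. On that scale 1337 genes (10.2%) were called, 924 higher (7.06%) and 413 lower (3.16%). Of the genes called in the deposited TPM, 1082 were called in the same direction on both scales, and 3348 that were higher in the deposited TPM were not called after rescaling, while 255 genes were called lower on the rescaled TPM only.

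The members themselves lay further apart on scales that do not contain them. Rescaling to the other genes moves all 3 members by the same amount. Its direction was fixed by the larger share of the other genes in hSKP2-KI mice, so it is no further result. Rescaled to the TPM outside the 3 genes, the log2 difference was -0.49 for Sbp, -0.998 for Spink1 and -0.64 for Sbpl, that is 28.9%, 49.9% and 35.9% lower in hSKP2-KI mice. Set against the mean log2 TPM of 10 luminal epithelial markers (among them Krt8, Krt18, Epcam and Cdh1) in the same mouse, the differences were -0.47, -0.97 and -0.62, and the genotypes did not overlap for any of the 3 genes. This too moves the 3 genes by the same amount. The geometric mean of the markers was itself higher in hSKP2-KI mice (128 to 141 TPM) than in WT mice (106 to 127 TPM). Relative to the markers, 596 of the tested genes (4.56%) were lower in every hSKP2-KI mouse, and nothing is read from that share.

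**Figure D4:**
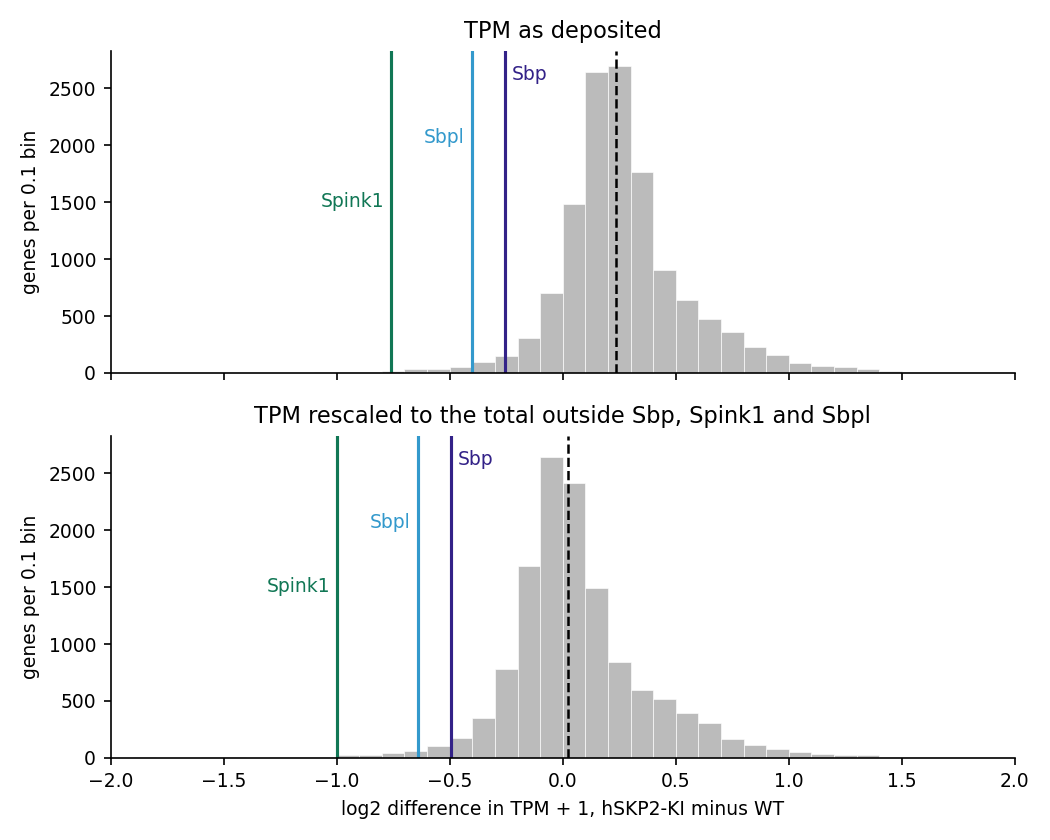
Number of tested genes per 0.1 of the log2 difference in TPM + 1 (hSKP2-KI minus WT) in the deposited TPM (top) and after rescaling to the TPM outside the 3 genes (bottom); coloured lines mark Sbp, Sbpl and Spink1, the dashed line marks the median, and 42 genes beyond 2 in either direction are not drawn in each panel. The median moves from 0.23 to 0.02, and Spink1 from -0.76 to -0.998.

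The genes that follow in abundance were far below. Defb50, a beta-defensin gene and the next by mean TPM, had a mean of 21002 TPM over the 8 mice, and Sbp was 10.7, Spink1 4.12 and Sbpl 3.29 times as high. Defb50 ran against the members, with 15490 to 17446 TPM in WT and 20567 to 29212 TPM in hSKP2-KI mice (log2 difference 0.57, standard error 0.16, adjusted p = 0.021 by limma), and did not pass on the TPM outside the 3 genes (0.33, adjusted p = 0.225). 9530002B09Rik was at 16182 to 19670 TPM in WT and 13824 to 15812 TPM in hSKP2-KI mice, and passed on the TPM outside the 3 genes (log2 difference -0.56, limma adjusted p = 0.032) but neither in the deposited TPM (adjusted p = 0.077) nor with median-ratio scaling (0.0727). Msmb, which encodes the prostatic secretory protein beta-microseminoprotein, was higher in hSKP2-KI mice on both scales, with 4126 to 6069 TPM in WT and 7135 to 13616 TPM in hSKP2-KI mice (log2 difference 0.96 and 0.72, limma adjusted p = 0.00599 and 0.0412). With median-ratio scaling the adjusted p of Msmb became 0.0539.

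BB114814 was at 6807 ± 646 TPM (SD, n = 4) in WT and 6697 ± 729 TPM (SD, n = 4) in hSKP2-KI mice, with overlap. Eef1a1, a translation elongation factor, did not pass either (log2 difference 0.18, limma adjusted p = 0.164). B2m, the light chain of MHC class I, was at 1545 to 3995 TPM in WT and 4413 to 5722 TPM in hSKP2-KI mice (limma adjusted p = 0.0149, and 0.0923 on the TPM outside the 3 genes). Within the TPM outside the 3 genes, the 17 genes ranked 4 to 20 held 15.7% ± 0.173 (SD, n = 4) in WT and 15.1% ± 1.02 (SD, n = 4) in hSKP2-KI mice, a difference of -0.553 percentage points (two-sided exact permutation test over 70 assignments, p = 0.4). These include Pbsn, the gene disrupted by the knock-in, and without Pbsn the difference was 0.469 points in the other direction (exact permutation test, p = 0.4).

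Other inhibitors of the Kazal and Kunitz families were mostly listed at low values or at 0. Of 16 listed genes, 8 stayed under 1 TPM in every mouse and 6 were tested, of which 1 rose and 1 fell in the deposited TPM and 0 rose and 1 fell on the TPM outside the 3 genes (limma; at an unadjusted p under 0.05, 0 higher and 2 lower). Beside this, 32.7% of all tested genes rose and 1.23% fell in the deposited TPM, and 7.06% and 3.16% outside the 3 genes. The 2 calls in the deposited TPM fell to 0 without hSKP2-KI replicate 2 or WT replicate 3 and to 1 without hSKP2-KI replicate 4 or WT replicate 1. Spink5, a multi-domain Kazal inhibitor of skin kallikreins, was the most abundant, with 2654 to 3574 TPM in WT and 3424 to 5549 TPM in hSKP2-KI mice (log2 difference 0.55, limma adjusted p = 0.0235), and lost its call on the TPM outside the 3 genes (0.31, adjusted p = 0.239). Spink8 was low and fell, from a mean of 13.6 to 8.91 TPM (log2 difference -0.54 and, outside the 3 genes, -0.79, limma adjusted p = 0.0338 and 0.0348). Spint2, a Kunitz inhibitor of membrane serine proteases, was at 635 ± 45.8 TPM (SD, n = 4) in WT and 777 ± 107 TPM (SD, n = 4) in hSKP2-KI mice and passed on neither scale.

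Spink1 is known as an inhibitor of trypsin. The trypsinogen genes Prss1, Prss3, Try4 and Try10 were listed at 0 in all 8 mice, as were mitochondrial genes that every cell uses, so these zeros do not show absence, and Prss2 reached at most 1.53 TPM. Of 19 listed trypsin-like proteases and their receptor, 11 were tested, 3 rose and 1 fell in the deposited TPM, and 2 rose and 2 fell on the TPM outside the 3 genes. Gene-wide, 32.7% of tested genes rose and 1.23% fell in the deposited TPM, and 7.06% and 3.16% outside the 3 genes. Prss23 rose from 22.8 ± 2.79 (SD, n = 4) to 52.2 ± 11.2 TPM (SD, n = 4; log2 difference 1.14 and, outside the 3 genes, 0.92, limma adjusted p = 0.000905 and 0.00711). Hpn, which encodes hepsin, rose from 2.58 to 4.96 TPM in WT to 5.86 to 8.05 TPM in hSKP2-KI mice. Tmprss2, an androgen-regulated membrane protease of the prostate, fell from 133 ± 23.2 to 96.6 ± 5.45 TPM (SD, n = 4 each; log2 difference -0.44 and -0.68, limma adjusted p = 0.0169 and 0.0124). F2rl1, the receptor that trypsin activates, was at 7.42 to 21.7 TPM in WT and 8.12 to 10.5 TPM in hSKP2-KI mice and passed on neither scale.

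Polyamine metabolism supplies the spermine that the Sbp product binds. Of 22 listed genes 21 were tested, 7 rose and 1 fell in the deposited TPM, with a median log2 difference of 0.13 beside 0.23 over all genes. Among all tested genes, 32.7% rose and 1.23% fell on this scale. The 8 calls became 4 without hSKP2-KI replicate 4 or WT replicate 3 and 5 without hSKP2-KI replicate 2. On the TPM outside the 3 genes, 1 rose and 2 fell, beside 7.06% and 3.16% of all tested genes, with a median of -0.10 beside 0.02. Sat1, the acetyltransferase that starts polyamine breakdown and export, was higher in every hSKP2-KI mouse (154 to 194 TPM) than in any WT mouse (86.9 to 114 TPM), with a log2 difference of 0.77 and, outside the 3 genes, 0.53 (limma adjusted p = 0.00101 and 0.0055). Arg1, an arginase that makes ornithine, fell from 16.4 ± 5.26 to 6.28 ± 2.67 TPM (SD, n = 4 each; log2 difference -1.29, limma adjusted p = 0.00979). Srm, the spermidine synthase gene, was at 201.7 to 227.1 TPM in WT and 144 to 213 TPM in hSKP2-KI mice, and was called lower on the TPM outside the 3 genes (-0.48, limma adjusted p = 0.0296) and with median-ratio scaling (-0.51, adjusted p = 0.0319) but not in the deposited TPM. Odc1, the ornithine decarboxylase gene, was at 299 ± 70.9 TPM (SD, n = 4) in WT and 246 ± 16.5 TPM (SD, n = 4) in hSKP2-KI mice and passed on neither scale, and Amd1, an S-adenosylmethionine decarboxylase gene with 580 to 732 TPM over the 8 mice, did not pass either.

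Other secretory products of the prostate moved in both directions. Of 20 listed genes 16 were tested, 9 rose and 3 fell in the deposited TPM, and 3 rose and 3 fell on the TPM outside the 3 genes. For all tested genes the shares were 32.7% and 1.23% in the deposited TPM, and 7.06% and 3.16% outside the 3 genes. The 3 listed genes that fell on both scales were Pbsn, Clu and Azgp1. Pbsn is the gene that received the insert, so its fall is not read as a result about secretory products. Clu, which encodes the secreted chaperone clusterin, was at 1332 to 3031 TPM in WT and 386 to 769 TPM in hSKP2-KI mice (log2 difference -2.17, limma adjusted p = 0.00074). Azgp1, which encodes zinc-alpha-2-glycoprotein, was at 431 to 702 TPM in WT and 255 to 324 TPM in hSKP2-KI mice (log2 difference -0.93, limma adjusted p = 0.00321). The 3 that rose on both scales were Msmb, Defb1 and Wfdc2. Defb1, a beta-defensin gene, was at 871 to 1304 TPM in WT and 1748 to 2290 TPM in hSKP2-KI mice, and Wfdc2, a whey acidic protein family member, was at 27.2 to 45.1 and 83.3 to 249 TPM. Tgm4, a prostate transglutaminase, had 77.5 TPM in hSKP2-KI replicate 1 and 4.99 to 6.74 TPM in the other hSKP2-KI mice, above 1.06 to 2.16 TPM in WT, and its call (limma adjusted p = 0.028) was lost on the TPM outside the 3 genes (adjusted p = 0.077). Zg16, a jacalin-like lectin of the family to which the Sbp product belongs, was listed at 0 in all mice.

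Genes for the passage of secretory proteins into the endoplasmic reticulum were listed next. All 22 listed genes were tested, 7 rose and 1 fell in the deposited TPM, and 0 rose and 5 fell on the TPM outside the 3 genes (limma; at an unadjusted p under 0.05, 1 higher and 7 lower). Over all tested genes, 32.7% rose and 1.23% fell in the deposited TPM, and 7.06% rose and 3.16% fell outside the 3 genes. The 8 calls in the deposited TPM became 4 without hSKP2-KI replicate 1 or WT replicate 3 and 5 without hSKP2-KI replicate 2 or 4 or WT replicate 4. The median log2 difference was 0.20 beside 0.23 over all genes, and -0.03 beside 0.02. Sec11c, a catalytic subunit of the signal peptidase, fell on both scales, with 522 to 563 TPM in WT and 322 to 373 TPM in hSKP2-KI mice (log2 difference -0.68, standard error 0.07, limma adjusted p = 0.00044, and -0.92, adjusted p = 0.000123). Its paralog Sec11a was higher in every hSKP2-KI mouse (108 to 113 TPM) than in any WT mouse (72.1 to 93.7 TPM; log2 difference 0.42, limma adjusted p = 0.006) and did not pass on the TPM outside the 3 genes (0.19, adjusted p = 0.096). Sec61b, of the translocon, rose in the deposited TPM (log2 difference 0.31, limma adjusted p = 0.0482) and not on the TPM outside the 3 genes (adjusted p = 0.725). Ssr4, of the translocon-associated complex, fell on the TPM outside the 3 genes (-0.31, limma adjusted p = 0.0305) and passed neither in the deposited TPM nor with median-ratio scaling (adjusted p = 0.0596). With median-ratio scaling, 0 of the listed genes rose and 4 fell, beside 905 and 556 of the 13080 tested genes.

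Among 16 androgen and luminal transcription factor genes, 15 were tested, 7 rose and 0 fell in the deposited TPM (limma; at an unadjusted p under 0.05, 9 higher and 0 lower), and 2 rose and 2 fell on the TPM outside the 3 genes. The shares over all tested genes were 32.7% higher and 1.23% lower in the deposited TPM, and 7.06% and 3.16% outside the 3 genes. The median log2 difference was 0.32 beside 0.23 over all genes, and 0.11 beside 0.02. Gata3 and Gata2, which encode zinc finger factors of luminal cells, rose on both scales (log2 difference 0.82 and 0.64, and outside the 3 genes 0.60 and 0.42). Hoxb13, a homeobox gene of the ventral prostate, and Foxa1, a forkhead gene of luminal cells, fell on the TPM outside the 3 genes (-0.37 and -0.30, limma adjusted p = 0.038 and 0.0426) and not in the deposited TPM. With median-ratio scaling Foxa1 was called (adjusted p = 0.0342) and Hoxb13 was not (adjusted p = 0.0636).

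**Figure D5:**
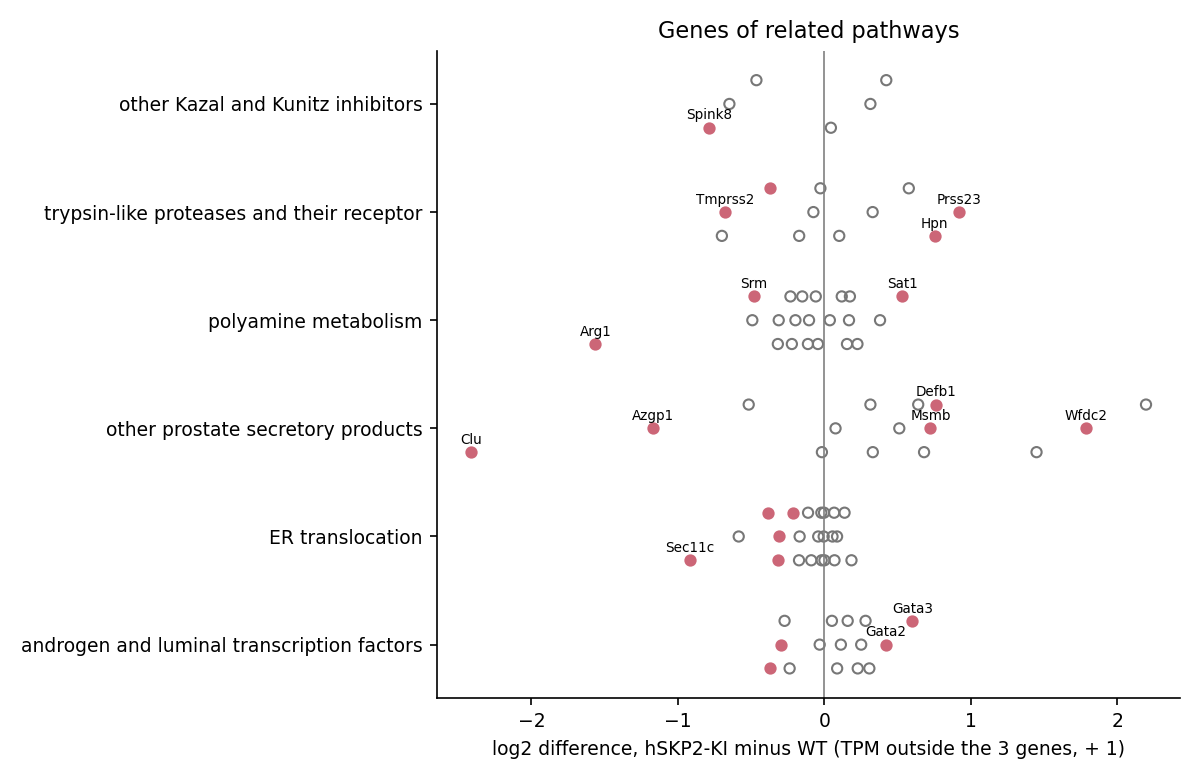
Log2 difference (hSKP2-KI minus WT, TPM rescaled to the total outside the 3 genes, plus 1) of the tested genes of each list, with filled points for a limma adjusted p under 0.05 and names for those at least 0.4 from 0. Pbsn, at -5.91, lies beyond the axis and is not drawn; the lowest point drawn is Clu at -2.41.

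The tissue the libraries came from was checked against markers. All 10 luminal epithelial markers were tested, 2 rose in the deposited TPM and 0 changed on the TPM outside the 3 genes (limma; 0 also at an unadjusted p under 0.05). Across all tested genes, 32.7% rose in the deposited TPM and 10.2% were called in either direction outside the 3 genes. The 2 calls became 0 without hSKP2-KI replicate 1 or 4 or WT replicate 1, and 1 without hSKP2-KI replicate 2 or 3 or WT replicate 3. Their summed level was 2059 to 2321 TPM in WT and 2381 to 2754 TPM in hSKP2-KI mice. None of the 8 seminal vesicle markers reached 1 TPM in any mouse, and Svs2, Svs3a and Pate4 were listed at 0 throughout. Among 11 pancreatic acinar markers, 10 stayed under 1 TPM and Cela1, an elastase gene, was at 37.4 to 50.6 TPM in WT and 26.6 to 33.9 TPM in hSKP2-KI mice. Cela1, the only marker of this list that was tested, fell in the deposited TPM, on the TPM outside the 3 genes and with median-ratio scaling (log2 difference -0.46, -0.70 and -0.73, limma adjusted p = 0.014, 0.00977 and 0.0161), the same direction as Spink1. Its part in the Spink1 result was not tested. Cpa1, Ctrb1, Pnlip, Amy2b and Ptf1a were listed at 0.

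Stromal markers moved with the genotype in the opposite direction to the 3 genes, as most genes did in the deposited TPM. Of all tested genes, 89.1% lay above 0 there and 32.7% were called higher, beside 7.06% called higher on the TPM outside the 3 genes. All 8 fibroblast markers rose in the deposited TPM and 3 of 8 on the TPM outside the 3 genes, with a summed level of 462 to 659 TPM in WT and 848 to 1493 TPM in hSKP2-KI mice. Without WT replicate 1, 4 of the 8 rose in the deposited TPM. Lum and Dcn, which encode small proteoglycans of the matrix, were at 4.07 to 8.59 and 285 to 398 TPM in WT and at 17.2 to 32.9 and 519 to 768 TPM in hSKP2-KI mice. For 8 smooth muscle markers, 8 and 6 rose (2083 to 2626 and 3089 to 4722 TPM), and for 6 endothelial markers, 5 and 2 rose (24.6 to 34.5 and 42.0 to 68.8 TPM), with 3 in place of 5 without hSKP2-KI replicate 4 or WT replicate 1. The 7 leukocyte markers summed to 18.1 to 56.0 TPM in WT and 46.7 to 127 TPM in hSKP2-KI mice, and 2 and 0 passed (limma; 3 and 1 at an unadjusted p under 0.05). In the deposited TPM, 4 of them passed without WT replicate 3 and 1 without any other mouse except hSKP2-KI replicate 1. Of 6 basal epithelial markers, 3 and 0 rose (214 to 324 and 315 to 455 TPM; limma, 5 and 2 at an unadjusted p under 0.05), with 5 without hSKP2-KI replicate 1 and 1 without WT replicate 3 in the deposited TPM. Of 6 proliferation markers 2 were tested and 0 passed on either scale with limma, adjusted or not. The hSKP2-KI mouse with the highest fibroblast, smooth muscle and leukocyte sums, replicate 2, had the lowest Spink1 and the highest Sbpl of its group. Without that mouse the log2 difference was -0.25 for Sbp, -0.65 for Spink1 and -0.48 for Sbpl. The part of these cells in the levels of the 3 genes was not tested.

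The genes most like each member were those whose log2 ratio to it varied least over the 8 mice, among 7378 genes with a mean of at least 10 TPM and no value of 0. For Sbp these were Asl (argininosuccinate lyase, standard deviation of the log2 ratio 0.059), Aldh7a1 (an aldehyde dehydrogenase, 0.073) and Exoc7 (a subunit of the exocyst, 0.079), beside a median of 0.31 over all genes compared. Asl had 71.1 to 74.4 TPM in WT and 56.6 to 60.2 TPM in hSKP2-KI mice, so that it kept to the Sbp level within a narrow range. For Spink1 the nearest was Gm40338, a long non-coding RNA gene (0.084), with 61.9 to 75.1 TPM in WT and 32.0 to 48.7 TPM in hSKP2-KI mice. It was followed at some distance by Acrbp (0.20), which encodes an acrosin-binding protein, and Mccc1 (0.21), a carboxylase subunit of leucine breakdown, beside a median of 0.59. For Sbpl they were Arhgdig (0.086), Srm (0.10) and Mri1 (an enzyme of methionine salvage, 0.10), beside a median of 0.40.

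The members were not the nearest genes of each other. The standard deviation of the log2 ratio was 0.18 between Sbp and Sbpl, 0.33 between Sbp and Spink1 and 0.38 between Spink1 and Sbpl. Counted from Sbp, Sbpl was in place 306 and Spink1 in place 4264, where the value of 0.33 lay above the median of all genes compared. Counted from Sbpl, Sbp was in place 35 and Spink1 in place 3043, and counted from Spink1, Sbp was in place 42 and Sbpl in place 119. The likeness is a description over mice that share their libraries and their genotype groups.

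Of the protein-coding genes within 100 kb of Sbp and Sbpl on chromosome 17, those closest to them had low levels. Dcpp1, Dcpp2 and Dcpp3, genes of the demilune cell and parotid protein family on the side of Sbp from 23880669 to 23919441, reached at most 0.709, 0.318 and 0 TPM. Prss30, the protein-coding gene next to Sbpl, reached at most 0.102 TPM. Further out, the serine protease genes Prss21, Prss33, Prss41 and Prss27 reached at most 0.151, 0.208, 0.655 and 2.40 TPM, and Prss22 was at 2.30 to 6.29 TPM over the 8 mice. Prss32 was low, with 0.231 to 0.498 TPM in WT and 1.13 to 3.92 TPM in hSKP2-KI mice. It reached 1 TPM in hSKP2-KI mice only and so passed the filter through the group where it was high. Its difference is therefore given without a test. Srrm2 and Kctd5, at the ends of the window, reached 185 and 28.1 TPM. Elob, also in the window, was not found under that symbol. These neighbours were chosen after the values of the libraries had been seen.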

How the data were processed

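Total RNA of ventral prostates was poly-A selected, sequenced in pairs and, per the methods of the study, trimmed, quality checked and aligned to a mouse genome with CLC Genomics software. The submitters' processing notes name mm10 and GRCm38. Strand, annotation, version and the handling of reads with several matches are not given in the sources used here. The authors deposited 1 table of TPM for the 8 samples, and each column summed to 1000000. The mitochondrial genes COX1, CYTB, ND4, ND1 and ATP6 stood at 0 in all samples, so a 0 need not mean absence. Each share is therefore of the listed TPM and not of all transcripts in a library. Depth is unknown and no intervals from counts were used.

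Groups came from the sample labels. That the mice are separate animals is taken from their numbering. The 3 genes and all lists were chosen with earlier results of these data known. Genes that reached 1 TPM in 4 or more samples were fitted as log2(TPM + 1) with limma 3.58.1 (trend, R 4.3.3), Benjamini-Hochberg adjusted with a threshold of 0.05, after a check on simulated data. The added 1 understates changes of low genes. Named were the 3 genes, Skp2, Pbsn, ranks 4 to 10 by mean TPM, in each list the 2 most abundant and the 2 with the largest called change, Odc1, Zg16, F2rl1, and the 3 genes most like each member; some genes of the rule are covered by their list only or not reported here. Clu, Azgp1, Defb1, Wfdc2, Foxa1, the chromosome 17 neighbours and Prss2 with the genes listed at 0 were named after their values were seen. A two-sided exact permutation test (scipy 1.17.1) was used for ranks 4 to 20. Sequences came from RefSeq (GRCm38.p6) and GENCODE M21 and were aligned with Biopython 1.88. Alternatives were median-ratio and quantile scaling, TPM rescaled without the 3 or the 20 most abundant genes, a pseudocount of 0.1, no filter, a minimum mean TPM of 5, a replicate block and each mouse left out.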

Additional observations from a re-analysis of the deposited data

Results flagged for a closer look

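In groups of 4 mice, 1 mouse stood apart by Dixon's criterion in 15 of 170 groups of values, where chance gives about 1 in 20. These groups are not independent, since the level and the share of Sbp are the same values and the 5 values of WT replicate 2 come from the same 3 genes. Among the members, hSKP2-KI replicate 3 had the highest Sbp of its group (218476 TPM, 21.8% of the TPM), away from the other 3 hSKP2-KI mice and below every WT mouse. Within the WT group, replicate 2 stood apart in the balance of the 3 genes. It had the lowest WT share of Spink1 (22.2%) and the highest of Sbpl (19.7%) within their total. Its Sbp to Spink1 ratio was the highest in WT (2.61), and its Sbp to Sbpl (2.95) and Spink1 to Sbpl (1.13) ratios were the lowest in WT. Without this mouse the log2 difference of Spink1 was -0.85, that of Sbpl -0.40 and that of Sbp -0.27.

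Outside the members, Pbsn was high for its group in hSKP2-KI replicate 4 (174 TPM), and Tgm4 (77.5 TPM) and Epcam (439 TPM) in hSKP2-KI replicate 1. Cd68, a macrophage marker, was high in hSKP2-KI replicate 2 (59.1 TPM), and Odc1 was low in hSKP2-KI replicate 4 (221 TPM). In WT mice, Krt18 was low in replicate 3 (507 TPM), Cela1 was high in replicate 1 (50.6 TPM) and Tagln, a smooth muscle gene, was high in replicate 4 (940 TPM).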

How the results depend on the processing

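The share of the 3 genes kept its difference, from -11.1 to -9.29 percentage points with each mouse left out and -10.2 among the genes that pass the filter. The log2 differences of Sbp, Spink1 and Sbpl were larger after median-ratio scaling (-0.52, -1.03 and -0.67), TPM rescaled without the 3 genes (-0.49, -0.998 and -0.64) and TPM rescaled without the 20 most abundant genes (-0.50, -1.01 and -0.65), and, in a comparison added after seeing the data, relative to 10 luminal markers (-0.47 for Sbp and -0.62 for Sbpl). Each of these scalings applies a single factor per library and moves the 3 genes by the same amount, so they are not separate checks. Quantile normalization gives each rank the same value in every mouse, so Sbp, first in all mice, was at 0 by construction, Spink1 at -0.21 and Sbpl at 0.21, in the reverse direction, from their order alone. A pseudocount of 0.1 left the 3 values unchanged to 2 decimals.

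The number of genes called fell from 4433 to 1461 (905 higher, 556 lower) with median-ratio scaling, 1325 (720 and 605) with quantile normalization, 1337 without the 3 genes and 1330 (892 and 438) without the 20 most abundant. It was between 2993 and 4677 with each mouse left out, 3416 with no filter, 3434 with a mean TPM of at least 5, and 4406 with the pseudocount of 0.1. In the pathway lists, 40 genes were called, 23 under each of the 4 other scalings and 29 to 42 with each mouse left out. The replicate block gave 4 calls in place of 2 among the leukocyte markers. The share of ranks 4 to 20 differed by -0.891 to -0.129 points with each mouse left out and by 0.469 points in the reverse direction without Pbsn, a setting added after seeing the data. The replicate block gave 5128 genes and 40 in the lists. The numbers are not known to pair the mice: same-numbered mice had correlated deviations across genes of 0.22, -0.11, 0.17 and -0.01.

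Unknown depth leaves counting error unmeasured, and mice per group limit the precision of every spread given here.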
